A study of Mus musculus with 18 samples.

Results

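The genes described here are the collagen genes, taken as every row of the deposited gene table whose symbol is Col, a number, the letter a and a further number. The rule found 44 genes of 51290, and they were sorted by textbook knowledge into 11 fibrillar, 9 basement membrane, 9 FACIT (fibril-associated with interrupted triple helices) and 15 other collagens. Bulk poly(A) RNA was sequenced from 18 mouse samples in 3 groups of 6. Normal nerve was trigeminal nerve of Nf1 flox/flox mice without the Cre (PostnCre-). Plexiform neurofibroma, a benign tumour growing along a nerve, was trigeminal nerve of Nf1 flox/flox mice with the Cre (PostnCre+), which is named for Postn, a matrix protein gene, and is known to act in the Schwann cell lineage. Malignant peripheral nerve sheath tumour (MPNST) came from PostnCre+ mice that were Nf1 flox/flox and also Arf flox/flox. All 3 groups thus carry floxed Nf1, the gene of the RAS regulator neurofibromin, and the MPNST mice carry floxed Arf, a tumour suppressor gene, in addition. The labels give no age and no body site for MPNST, and they place the nerve and neurofibroma samples in an earlier series, so malignancy, the Arf allele, body site and series cannot be told apart. Nothing in them says that samples came from separate animals, so p-values measure the spread between these samples, which may be technical.

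Collagens are trimers of chains wound into a helix in which glycine recurs at a fixed spacing. Fibrillar collagens assemble into the load-bearing fibrils of connective tissue, network-forming type IV collagens with types XV and XVIII make up basement membranes, and FACIT collagens sit on fibril surfaces. In peripheral nerve, fibrils fill the endoneurium and epineurium while each Schwann cell unit lies in a tube of basement membrane, and a collagen-rich matrix is a known feature of neurofibroma.

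That difference between classes can be read in the coding sequences. Glycine codons begin with GG, so in GENCODE M21 transcripts (build GRCm38) the longest unbroken run of glycine-X-Y codon triplets was counted for each of the 44 genes. It was 216 to 344 triplets in the fibrillar genes (median 338), 30 to 75 in the basement membrane genes (42), 32 to 113 in the FACIT genes (57) and 23 to 87 in the others (45). The classes were drawn up with this structure in mind, so the gap describes them and tests nothing. The first stretch below opens the 338-triplet run of Col1a1 (codons 168 to 191), and the second covers the end of the longest run of Col4a1, 40 triplets long (codons 151 to 174). They are shown as examples of unbroken and broken spacing. The first was placed at the start of a run and the second across the end of one, so their contrast follows from the placing. Capitals mark the glycine codons.
Col1a1: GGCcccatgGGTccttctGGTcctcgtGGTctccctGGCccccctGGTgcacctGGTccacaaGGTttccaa
Col4a1: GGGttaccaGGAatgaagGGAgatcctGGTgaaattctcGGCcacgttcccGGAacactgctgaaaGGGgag
In the Col1a1 stretch all 8 glycine codons stand 3 codons apart. In the Col4a1 stretch the spacing breaks after the run ends, and 7 glycine codons are left in the same length.

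Libraries held 13886399 to 23652959 estimated counts, and values are given as CPM, the usual scaling of counts by a library's total. The tissue labels were set beside marker genes. Nerve and neurofibroma libraries held Schwann cell markers at a summed 2830 to 11270 CPM over 9 genes and sensory neuron markers at 3170 to 6825 over 10 genes, so neuronal transcripts were abundant in the trigeminal tissue. Schwann cell markers summed to 68.4 to 1376 CPM in MPNST, lowest in library 4, where Sox10 stood at 5.32 CPM. Sensory neuron markers summed to 4.52 to 16.9 CPM in MPNST libraries 1 to 5 and to 1535 in library 6, with Isl1 at 0 in libraries 2, 4 and 5. Several libraries stood apart. Salivary gland markers took 393150 CPM in MPNST library 2, skeletal muscle markers 49184 in MPNST library 3, and pancreatic acinar and sympathoadrenal markers 3677 and 4158 in MPNST library 6. Nerve library 6 was highest in oligodendrocyte and astrocyte markers (2250 CPM) and neurofibroma library 1 in muscle markers of its group (1549 CPM). Fits without these 5 libraries leave 3 MPNST, 5 neurofibroma and 5 nerve samples. Adipocyte markers summed to 1521 CPM in MPNST library 1, 921 in MPNST library 5 and 780.5 in neurofibroma library 1, against at most 6.41 in the other nerve and neurofibroma libraries and 115 in the other MPNST libraries. MPNST libraries 1 and 5 are not among the 5, so fits without these 3 libraries were added after seeing the data. Nf1, the floxed gene, ran from 82.4 to 161 CPM in nerve (median 131), 66.7 to 91.3 in neurofibroma (median 82) and 28.1 to 123 in MPNST (median 52.8). Counts are per gene, so they do not show whether the floxed exons were lost. Postn ran from 10.9 to 27.5 CPM in nerve (median 23.2), 83.3 to 254 in neurofibroma (median 155) and 224 to 4431 in MPNST (median 1819).

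Collagen genes together took 0.080 to 0.160% of all counts in nerve (median 0.125%), 0.188 to 0.423% in neurofibroma (median 0.278%) and 0.123 to 2.05% in MPNST (median 1.39%). Nerve and neurofibroma did not overlap. MPNST split in an uneven way: libraries 1, 3, 4 and 5 held 1.39 to 2.05%, above every neurofibroma library, while library 2 held 0.123% and library 6 held 0.224%. In library 2 the 10 highest genes, led by salivary transcripts, took 54.4% of counts, which lowers the CPM of all other genes there. The fits correct for this with TMM factors (0.406 for library 2, 0.960 to 1.14 in the other MPNST libraries).

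**Figure D1:**
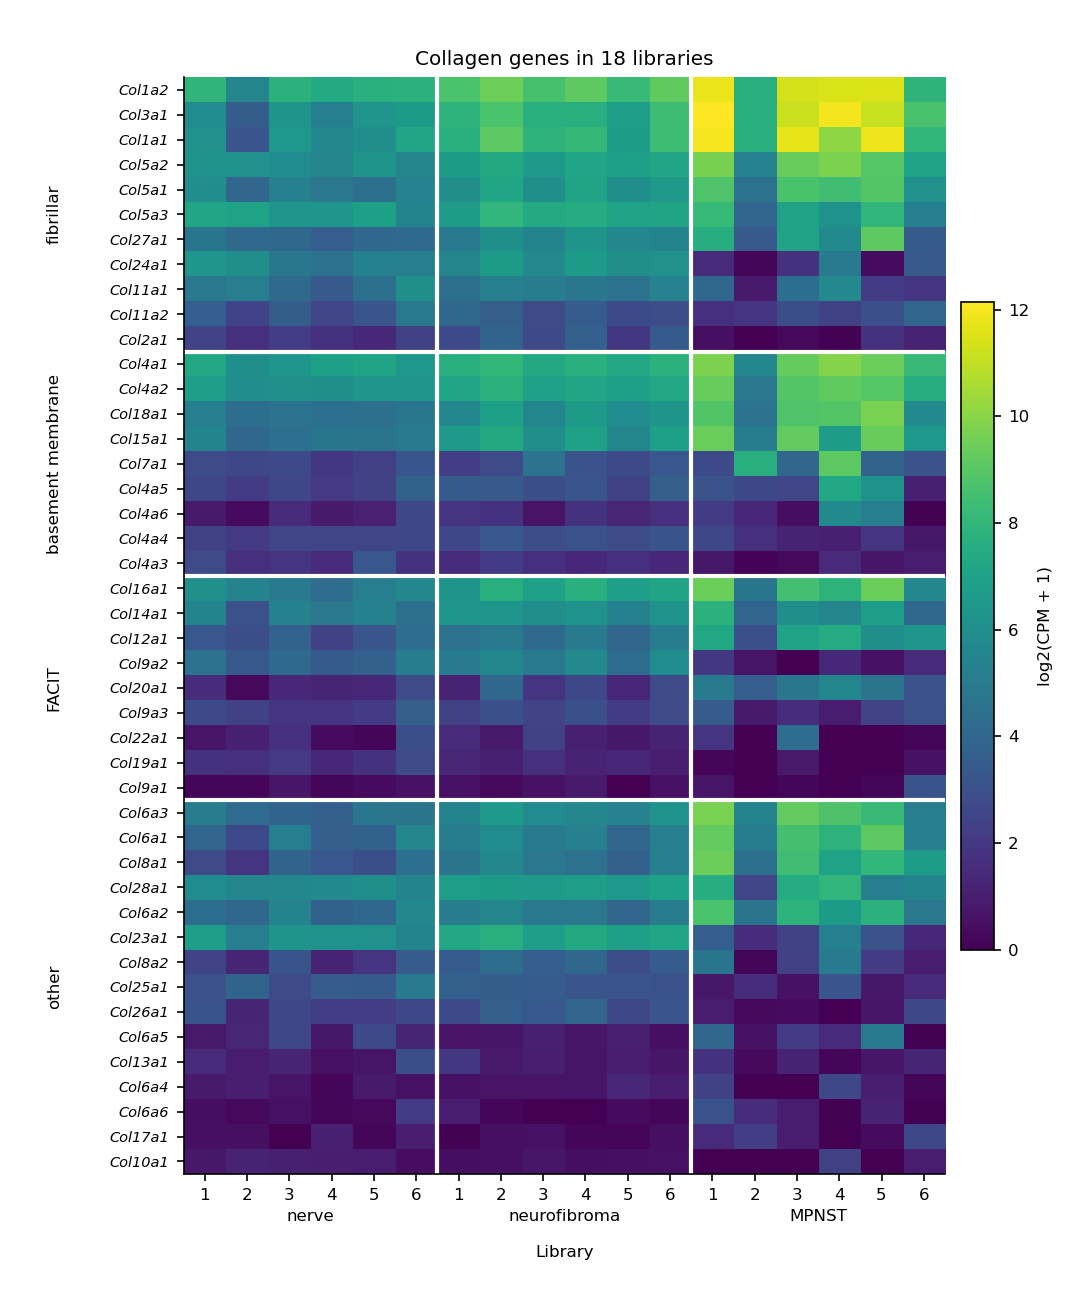
Log2(CPM + 1) of the 44 collagen genes (rows, by class and then by mean level) in the 18 libraries (columns, by group). Col1a1, Col1a2, Col3a1, Col5a1, Col5a2, Col4a1, Col4a2, Col6a1, Col6a2, Col6a3 and Col8a1 are brightest in MPNST libraries 1, 3, 4 and 5. For these genes MPNST libraries 2 and 6 are darker. Other members of the same classes do not share this pattern, and Col23a1, Col9a2 and Col24a1 are dark in nearly all MPNST libraries.

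Against nerve, neurofibroma showed a broad and moderate rise of collagen transcripts. Of 41 collagen genes tested, 20 rose and 2 fell (Col10a1 and Col19a1, both under 10 CPM), and 19 were not called at an edgeR adjusted p below 0.05. Over all genes tested, 7.94% rose and 6.0% fell. The median log2 change of the collagen genes was 0.94, beside -0.02 over all genes. In 13 of the 41, all 6 neurofibroma libraries lay above all 6 nerve libraries, against 3.91% of all genes. The falls were low and unsteady: Col10a1 lay between 0.327 and 1.28 CPM in nerve and between 0.349 and 0.665 in neurofibroma (log2 change -1.01, SE 0.31, adjusted p = 0.0492), and leaving out any of 10 libraries lost the call. In 1 fit of all 18 samples, which takes the spread from MPNST too, no collagen gene passed, and 2 genes of the whole table did (collagen genes: 18 at an unadjusted p below 0.05, edgeR; 22 rose by DESeq2 in its own fit), while all 22 called genes kept their direction. Without neurofibroma library 4 the count of rises was 13.

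MPNST against neurofibroma was larger in size and went both ways. Of 40 collagen genes tested 17 rose, 7 fell and 16 were not called. The shares over all genes tested were 25.3% higher and 16.8% lower. The count of falls was thus near the share over all genes. The median log2 change was 1.48 for the collagen genes and 0.22 over all genes. For no riser did all 6 MPNST libraries lie above neurofibroma in CPM, whereas all 7 members without overlap lay below it (2.26% and 16.2% of all genes). These were 6 of the called genes and Col4a4, which was not called. Their count too was near the share of all genes (16.2%). In each of MPNST libraries 1, 3, 4 and 5, 16 of the 17 risers lay above every neurofibroma library, the exception being Col7a1 in libraries 1, 3 and 5 and Col15a1 in library 4. Col7a1 alone lay above in library 2, and Col12a1, Col4a1 and Col8a1 in library 6. With TMM-scaled CPM, an alternative chosen after seeing the data, 8 of the 17 lay above neurofibroma in library 2 and the same count of 3 in library 6. Without the libraries holding other tissues 22 rose, among them all 17, beside 29.8% of all genes. Without the 3 libraries high in adipocyte markers 8 rose and 3 fell, beside 15.3% and 11.6% of all genes. The calls of Col1a1, Col1a2, Col5a1, Col5a2, Col4a1, Col4a2, Col15a1, Col18a1 and Col6a5 were lost there with the same direction (adjusted p = 0.0511 to 0.297), as were those of Col4a3, Col19a1, Col24a1 and Col26a1. The part of adipose tissue in the rises was not tested.

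MPNST against nerve shares its samples with both other comparisons and is given for size. Here 21 of 42 tested rose, 7 fell and 14 were not called, beside 27.6% and 18.4% of all genes (46.0% in either direction), and the median log2 change was 2.10 beside 0.22. The falls were again near the share over all genes. All 6 MPNST libraries lay above all nerve libraries for 5 members, and below for 2, against 2.88% and 15.5% of all genes. In all 3 comparisons 12 genes were called higher, namely Col1a1, Col1a2, Col3a1, Col5a1, Col5a2, Col4a1, Col4a2, Col15a1, Col18a1, Col12a1, Col6a3 and Col8a1. Another 3 rose in neurofibroma and fell in MPNST (Col2a1, Col9a2 and Col23a1). Tested in all 3 comparisons and never called were 8: Col5a3, Col11a1, Col11a2, Col9a3, Col22a1, Col6a4, Col8a2 and Col13a1. Col17a1 was tested in MPNST against nerve alone and not called. Too low to be tested in any comparison were Col6a6 and Col9a1, at most 7.42 and 7.81 CPM.

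**Figure D2:**
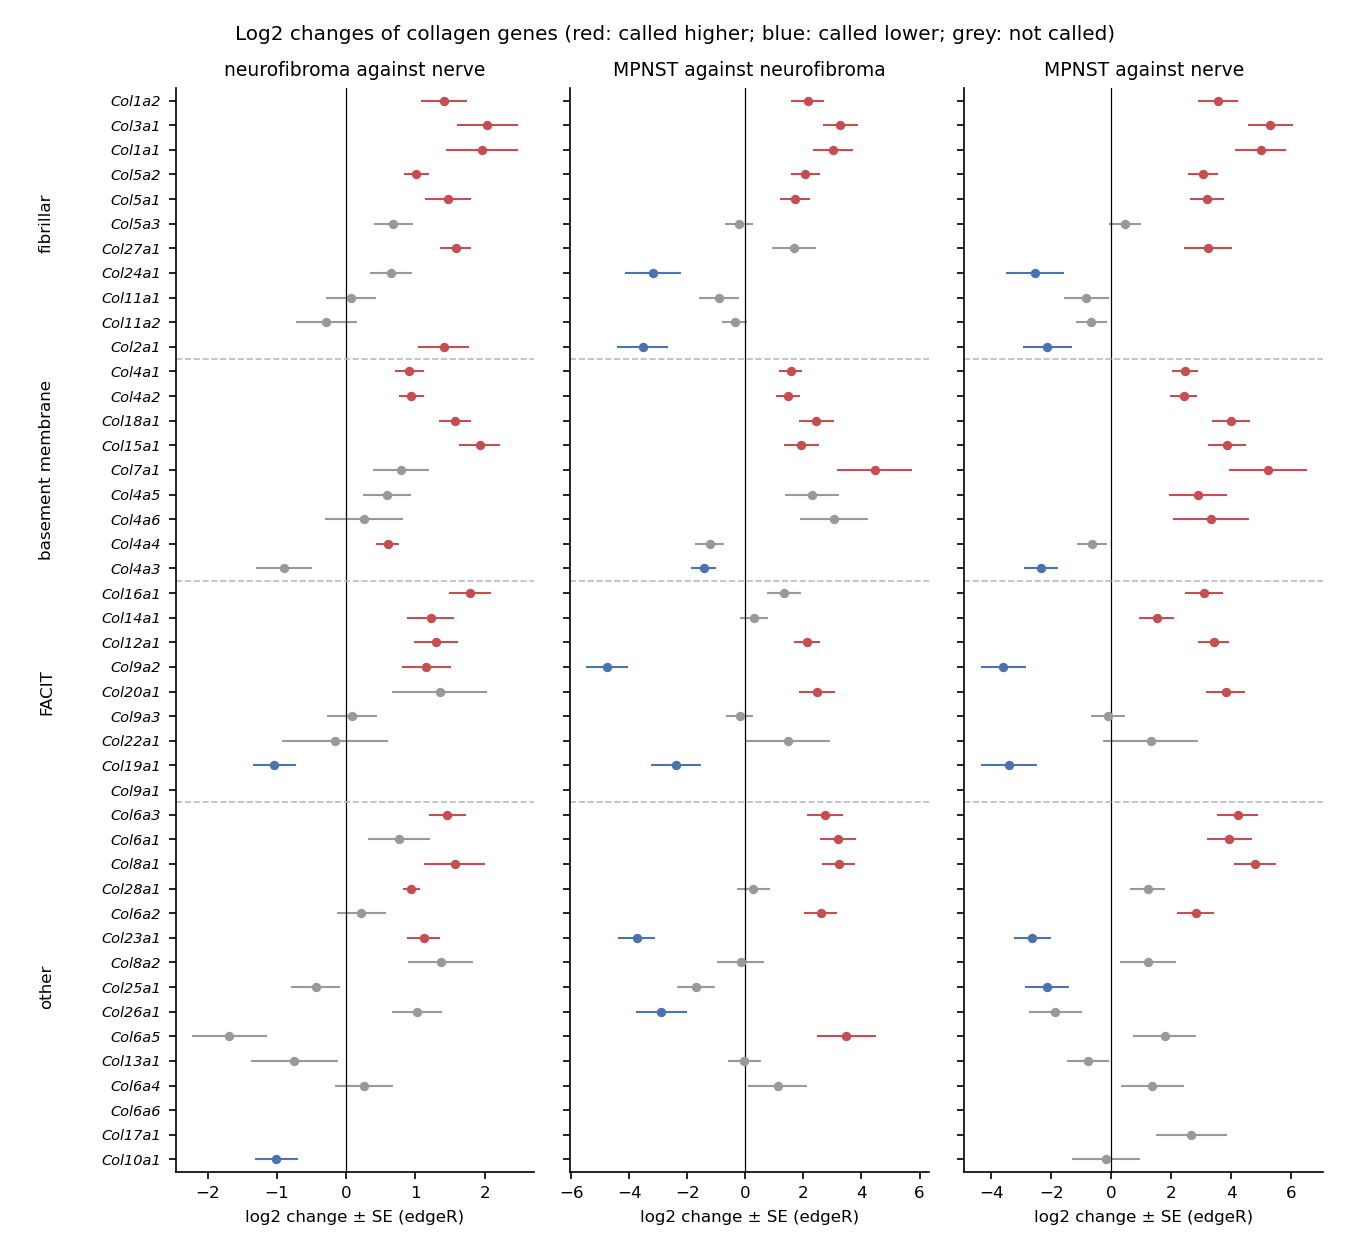
Log2 change with its standard error from edgeR for each collagen gene tested, by class, in the 3 comparisons (the horizontal scales differ). Points to the right of 0 prevail in all panels. The blue points at the left in the 2 MPNST panels are led by Col9a2, Col2a1, Col24a1, Col23a1 and Col19a1.

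Among the fibrillar genes 7 of 11 rose in neurofibroma, and 5 rose and 2 fell in MPNST against neurofibroma. Over all genes tested 7.94% rose in neurofibroma, and 25.3% rose and 16.8% fell in MPNST against neurofibroma. The fibrillar falls were thus near the share over all genes. The genes of the common fibrils led. Col1a1, the α1 chain of type I collagen, ran from 8.11 to 146 CPM in nerve (median 67.2), 103 to 538 in neurofibroma (median 248) and 199.6 to 4095 in MPNST (median 2176). Nerve and neurofibroma overlapped through nerve library 6, and MPNST libraries 2 (199.6 CPM) and 6 (260 CPM) lay within neurofibroma while the other 4 held 1076 to 4095. The gene rose in neurofibroma (log2 change 1.96, SE 0.52, adjusted p = 0.0271), in MPNST against neurofibroma (3.03, SE 0.69, adjusted p = 0.00458) and again in MPNST against nerve (5.0, SE 0.85, adjusted p = 0.000761). Its call in neurofibroma was lost without library 4 or 5 of nerve or library 2, 4 or 6 of neurofibroma (adjusted p up to 0.0644).

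Col1a2, the α2 chain that joins α1 in type I collagen, ran from 45.3 to 248 CPM in nerve (median 215), 304 to 706 in neurofibroma (median 494) and 196 to 3568 in MPNST (median 2724). Neurofibroma lay above nerve throughout, and MPNST libraries 2 and 6 fell below every neurofibroma library in CPM. With TMM-scaled CPM library 2 held 483.6 and lay within neurofibroma. It rose at both steps (log2 change 1.41, SE 0.33, adjusted p = 0.0169 in neurofibroma against nerve; 2.15, SE 0.57, adjusted p = 0.0101 in MPNST against neurofibroma). Col3a1, the chain of type III collagen that forms fine fibrils with type I, ran from 11.2 to 96.1 CPM in nerve (median 67.6), 107 to 413 in neurofibroma (median 218) and 201 to 4549 in MPNST (median 2283). Its groups did not overlap between nerve and either tumour. With 2.04 (SE 0.44) in neurofibroma and 3.27 (SE 0.60) in MPNST against neurofibroma it had the largest log2 rise of the fibrillar genes at each step (adjusted p = 0.0117 and 0.0014).

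Type V collagen starts fibril assembly inside type I fibrils. Its chain gene Col5a2 ran from 44.5 to 78 CPM in nerve (median 64.6), 92.1 to 165 in neurofibroma (median 128) and 40.8 to 868 in MPNST (median 570.3). No neurofibroma library overlapped nerve, and MPNST library 2 alone (40.8 CPM) lay below all nerve libraries. With TMM-scaled CPM library 2 held 100.3 and lay above every nerve library. It rose in neurofibroma (log2 change 1.01, SE 0.18, adjusted p = 0.00552) and again in MPNST against neurofibroma (2.07, SE 0.49, adjusted p = 0.00559). Col5a1 rose beside it at both steps (log2 change 1.47 and 1.72). The third type V chain gene, Col5a3, was not called in any comparison, with log2 differences of 0.68, -0.21 and 0.46. Col27a1, a fibrillar collagen with a shortened helix, rose in neurofibroma (log2 change 1.58, SE 0.22, adjusted p = 0.00191) and was not called in MPNST against neurofibroma (1.67, SE 0.76, adjusted p = 0.0938), where library 5 held 559.7 CPM and the next highest, library 1, 188. Without the libraries holding other tissues it was called there (2.20, adjusted p = 0.0126).

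The other fibrillar genes went down or stayed uncalled in MPNST. Col24a1, a fibrillar collagen known from developing bone and nervous tissue, ran from 23.3 to 80.2 CPM in nerve (median 38.1), 44.8 to 97.5 in neurofibroma (median 65.8) and 0.127 to 32.6 in MPNST (median 2.08). All MPNST libraries lay below neurofibroma, and library 4 (32.6 CPM) alone reached into the nerve range. It fell in MPNST against neurofibroma (log2 change -3.19, SE 0.96, adjusted p = 0.0188) and again in MPNST against nerve (-2.55, SE 0.96, adjusted p = 0.0461). The second call was lost on leaving out any of 11 of the 12 libraries (adjusted p up to 0.0852), and both were lost without the libraries holding other tissues (-2.80 and -2.13, adjusted p = 0.0644 and 0.144).

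Col2a1, the fibrillar chain of cartilage, ran from 1.61 to 4.64 CPM in nerve (median 2.96), 2.92 to 13.4 in neurofibroma (median 7.74) and 0 to 2.3 in MPNST (median 0.305). It rose in neurofibroma (log2 change 1.41, SE 0.37, adjusted p = 0.0274) and fell in MPNST against neurofibroma (-3.54, SE 0.89, adjusted p = 0.00784), where the groups did not overlap. Its call in neurofibroma was lost without library 2, 4 or 5 of nerve or library 2, 4 or 6 of neurofibroma (up to 0.0706). Against nerve its fall (-2.13, SE 0.81, adjusted p = 0.0491) was lost on leaving out any of 10 libraries and without those holding other tissues (-1.75, adjusted p = 0.136). Cartilage markers other than collagens summed to 37.6 to 62.3 CPM in nerve, 34.8 to 55.7 in neurofibroma, and between 3.30 and 73.4 in MPNST, with Acan at most 2.03 CPM. None of the 5 tested was called in neurofibroma, and 2 of 4 fell in MPNST against neurofibroma. Col11a1 and Col11a2, the other cartilage fibril chains, were not called anywhere.

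Markers of several cell types were set beside these changes. In neurofibroma 6 of 9 Schwann cell markers and 3 of 9 fibroblast markers rose against nerve, and the summed levels were 6642 to 11270 CPM beside 2830 to 6682 for the Schwann list and 660 to 768 beside 597 to 785 for the fibroblast list. Most of the fibroblast sum was Thy1, which neurons also express, and the other 8 markers summed to 188 to 273 CPM in neurofibroma and 129 to 179 in nerve, without overlap. In MPNST fibroblast markers summed to 99.99 to 2928 CPM, lowest in libraries 2 and 6, as for collagens, and 3 of 9 rose against neurofibroma. All 7 macrophage markers rose against neurofibroma (summed 128 to 2517 CPM beside 114 to 248). Of 9 endothelial markers 3 rose there (Pecam1, Cdh5 and Flt1; summed 102 to 671 CPM beside 135 to 195), as did 2 of 8 pericyte and smooth muscle markers tested (Notch3 and Abcc9; 128 to 832 CPM beside 211 to 609), both sums highest in MPNST libraries 1 and 3. Over all genes tested 7.94% rose in neurofibroma and 25.3% in MPNST against neurofibroma. The fibroblast, endothelial and pericyte counts in MPNST lay near that second share. No marker of these lists was at 0 in a whole group. Their part in the collagen changes was not tested, and in bulk tissue fewer cells of a type and less RNA per cell cannot be told apart.

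**Figure D3:**
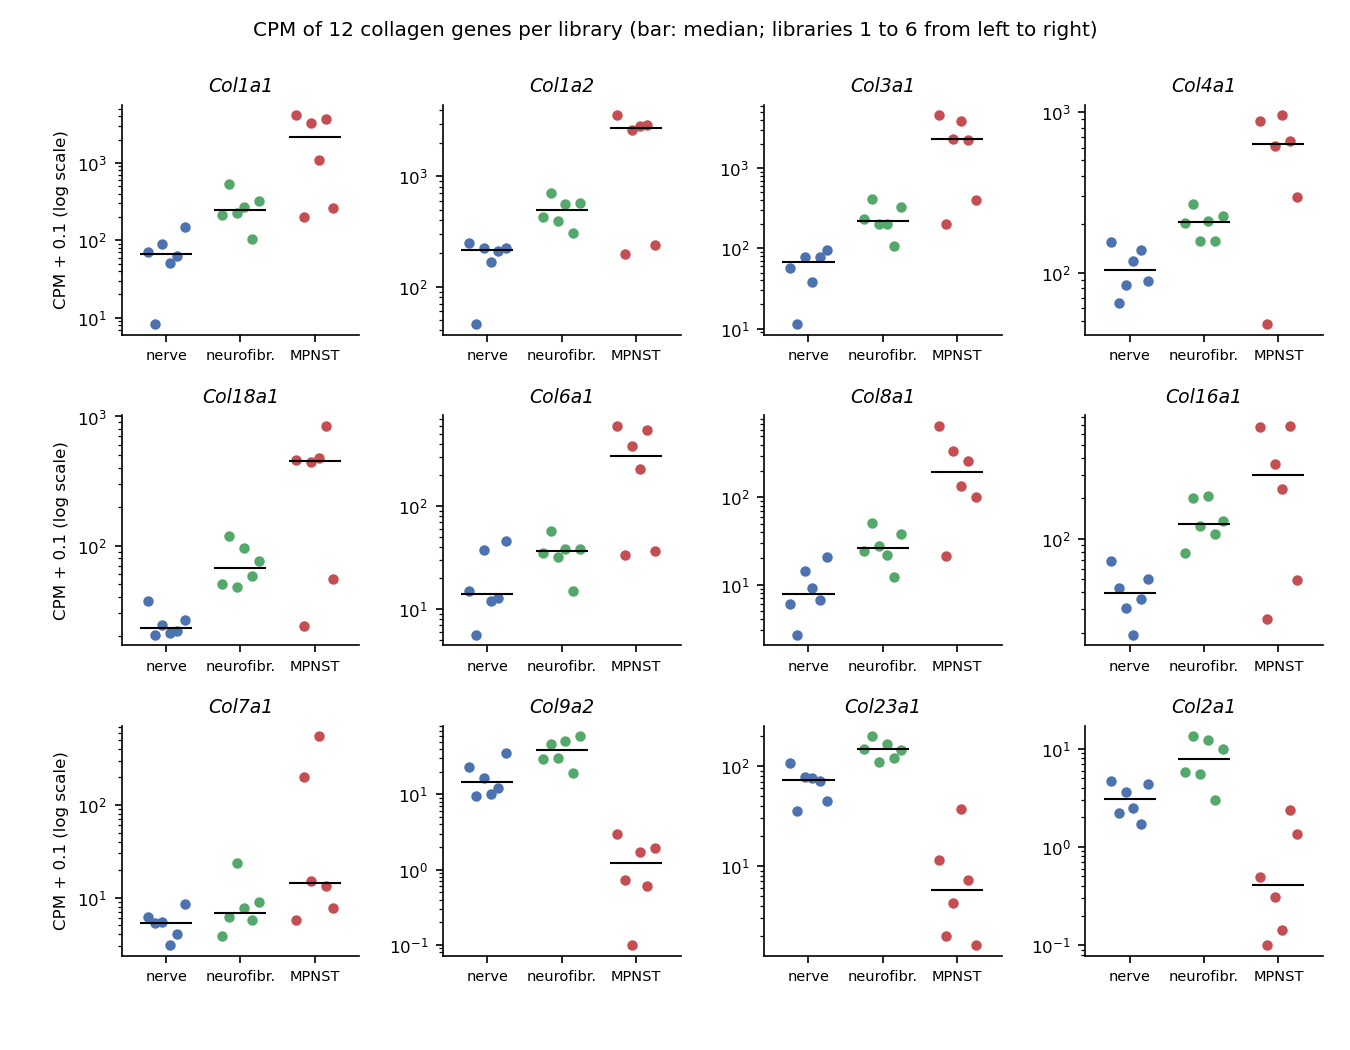
CPM (plus 0.1, log scale) of 12 collagen genes in each library, by group, with the group median as a bar. For Col1a1, Col3a1, Col4a1, Col18a1 and Col6a1 MPNST libraries 2 and 6 sit apart from the other 4, Col7a1 is high in MPNST libraries 2 and 4 alone, and Col9a2, Col23a1 and Col2a1 lie below neurofibroma in all 6 MPNST libraries.

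Of the 9 basement membrane genes 5 rose in neurofibroma, and in MPNST against neurofibroma 5 rose and 1 fell. The shares over all genes were 7.94% higher in neurofibroma, and 25.3% higher and 16.8% lower in MPNST against neurofibroma. Col4a1 and Col4a2, the chains of the type IV network found in nearly all basement membranes, moved as a pair. Col4a1 ran from 64.9 to 155 CPM in nerve (median 104), 158 to 266 in neurofibroma (median 206) and 47.5 to 952 in MPNST (median 636). Neurofibroma cleared nerve by a narrow margin, and MPNST library 6 (297 CPM) lay above all neurofibroma libraries while library 2 (47.5 CPM) lay below all nerve libraries. With TMM-scaled CPM library 2 held 117 and lay within nerve. The Col4a1 changes below are from the fits. It rose in neurofibroma (log2 change 0.91, SE 0.21, adjusted p = 0.016) and again in MPNST against neurofibroma (1.56, SE 0.39, adjusted p = 0.00787). Col4a2 ran from 60.9 to 112 CPM in nerve (median 74.4), 119.6 to 224 in neurofibroma (median 146) and 28 to 637 in MPNST (median 488) and rose by nearly the same amounts (0.94 and 1.48, SE 0.18 and 0.42, adjusted p = 0.00644 and 0.015).

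Col15a1 and Col18a1 encode proteoglycans that link basement membranes to the fibrils outside, and the end of the Col18a1 product is released as endostatin. Col15a1 ran from 16 to 43 CPM in nerve (median 25.2), 47.4 to 167 in neurofibroma (median 105) and 34.7 to 658 in MPNST (median 353). Every neurofibroma library exceeded nerve, and MPNST libraries 2, 4 and 6 (34.7, 101 and 87.1 CPM) lay within or below neurofibroma. Its rise was 1.93 in neurofibroma (SE 0.30, adjusted p = 0.0032) and 1.93 in MPNST against neurofibroma (SE 0.61, adjusted p = 0.0247), the latter lost without library 3 or 5 of neurofibroma or library 3 of MPNST (up to 0.0561). Col18a1 ran from 20.3 to 36.9 CPM in nerve (median 22.8), 47.5 to 119 in neurofibroma (median 67.3) and 23.6 to 847 in MPNST (median 454). It rose at both steps (log2 change 1.57, SE 0.23, adjusted p = 0.00255; 2.45, SE 0.61, adjusted p = 0.00736), with MPNST library 5 highest and library 2 at the level of nerve in CPM. With TMM-scaled CPM library 2 held 58.2 and lay above every nerve library.

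Other basement membrane genes were high in single tumours. Col7a1, whose product anchors epithelial basement membranes to the dermis, held 553 CPM in MPNST library 4 and 201 in library 2, and 5.59 to 14.9 in the other 4. Neurofibroma ran from 3.74 to 23.67 CPM (median 6.8) and nerve from 2.97 to 8.51 (median 5.25), so MPNST libraries 1, 3, 5 and 6 lay within neurofibroma and libraries 1 and 6 within nerve. Its rise was called in MPNST against neurofibroma (log2 change 4.45, SE 1.30, adjusted p = 0.0166) and nerve (5.23, SE 1.30, adjusted p = 0.00663), and not with the run of columns as a term against neurofibroma (2.99, adjusted p = 0.0805) or by limma-voom (1.13 and 1.85, adjusted p = 0.29 and 0.0641). The epithelial marker Epcam stood at 138 CPM in library 2 and 2.23 in library 4, and Krt18 at 197 and 247. The rest of that list held 112 and 1.72 (Krt8), 87.0 and 9.62 (Cdh1), 7.82 and 0 (Krt5) and 8.96 and 0 (Krt14). Krt18 was thus the only epithelial marker high in library 4. Their part in the Col7a1 values was not tested.

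The minor type IV chains Col4a3 to Col4a6 build the networks of kidney and some other membranes. Col4a5 reached 149.6 CPM in MPNST library 4 and 74.7 in library 5, and Col4a6 54.6 and 35.9 in the same libraries. In the other 4 MPNST libraries they held at most 7.76 and 3.54 CPM, against up to 11.9 and 2.54 in neurofibroma. Both were called in MPNST against nerve (log2 change 2.90 and 3.32, adjusted p = 0.0284 and 0.049), and both calls were lost without MPNST library 4 or 5 or any of nerve libraries 1 to 5. In MPNST against neurofibroma both were called without the libraries holding other tissues (3.18 and 4.02, adjusted p = 0.00514 and 0.0022). Col4a3 fell in MPNST against neurofibroma (-1.44, SE 0.44, adjusted p = 0.021; -1.08 and 0.0659 without the libraries holding other tissues), and Col4a4, which rose in neurofibroma (0.60, SE 0.17), had -1.23 there without a call (adjusted p = 0.0671).

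Of the 9 FACIT genes, 8 could be tested against nerve in neurofibroma, where 4 rose and 1 fell, beside 7.94% and 6.0% of all genes. In MPNST against neurofibroma 2 of 8 rose and 2 fell, close to the shares over all genes (25.3% and 16.8%). Col12a1, whose product lies on fibrils of tissues under load, ran from 4.33 to 19.2 CPM in nerve (median 8.65), 15.3 to 33.4 in neurofibroma (median 25.6) and 6.76 to 178 in MPNST (median 105). Nerve and neurofibroma overlapped through nerve library 6, and MPNST library 2 alone lay below neurofibroma in CPM. With TMM-scaled CPM it held 16.65 of Col12a1 and lay within neurofibroma. Col12a1 rose in neurofibroma (log2 change 1.30, SE 0.32, adjusted p = 0.0195), a call lost without library 4 of neurofibroma (0.0504), and in MPNST against neurofibroma (2.12, SE 0.44, adjusted p = 0.00284).

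Col14a1, a related FACIT of mature fibrils, behaved otherwise. It ran from 6.98 to 43 CPM in nerve (median 33.2), 39.1 to 82 in neurofibroma (median 73.9) and 14.8 to 222 in MPNST (median 55.7). It rose in neurofibroma (log2 change 1.22, SE 0.34, adjusted p = 0.0339; lost without library 4 of nerve or library 1, 2, 4 or 6 of neurofibroma, up to 0.071, and without the libraries holding other tissues, 0.0647), and its difference between MPNST and neurofibroma was 0.30 (SE 0.49, adjusted p = 0.64; -0.20 without MPNST library 1). Its call in MPNST against nerve (1.52, adjusted p = 0.0482) was lost on leaving out any of 9 libraries, with the run of columns as a term (0.0625) and without the libraries high in adipocyte markers (0.57, adjusted p = 0.405).

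Col16a1, found at basement membranes and fibrils, ran from 19.3 to 68.2 CPM in nerve (median 39.3), 77.9 to 209 in neurofibroma (median 129.5) and 25.1 to 693 in MPNST (median 297). All neurofibroma libraries lay above nerve, and MPNST ranged from below neurofibroma (libraries 2 and 6) to above it (libraries 1, 3, 4 and 5). The rise in neurofibroma was called (log2 change 1.79, SE 0.30, adjusted p = 0.00438), and that in MPNST against neurofibroma was not (1.33, SE 0.59, adjusted p = 0.0881), except without the libraries holding other tissues (1.72, adjusted p = 0.00459). Col20a1, a low FACIT gene, rose in MPNST against neurofibroma (2.47, SE 0.63, adjusted p = 0.00857), from 1.35 to 15.8 CPM there to 7.54 to 47.5 in MPNST. It was one of the 5 members without overlap between MPNST and nerve, with Col1a1, Col3a1, Col6a3 and Col8a1.

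Col9a2, a chain of the type IX collagen of cartilage, showed the widest reversal. It ran from 9.54 to 34.8 CPM in nerve (median 14.3), 19 to 59.2 in neurofibroma (median 38.5) and 0 to 2.91 in MPNST (median 1.13). No MPNST library reached the lowest nerve or neurofibroma library. Its rise in neurofibroma (log2 change 1.16, SE 0.35, adjusted p = 0.0434) was lost without library 2, 3, 4 or 5 of nerve or library 1, 2, 3, 4 or 6 of neurofibroma (up to 0.0954). Its fall in MPNST against neurofibroma (-4.76, SE 0.72, adjusted p = 0.000456) and against nerve (-3.61, SE 0.75, adjusted p = 0.00245) kept its call whichever library was left out. Col9a3, a partner chain, was not called in any comparison (0.09, -0.20 and -0.11), and Col9a1 was not tested. Col19a1, an FACIT known from the nervous system, was called lower in all 3 comparisons from at most 6.02 CPM. Its call in neurofibroma was lost without any of 7 libraries and without those holding other tissues (0.0717), and that in MPNST against neurofibroma without any of 10.

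The other collagens held the widest variety. Type VI collagen forms beaded microfilaments around cells, and its 3 main chain genes all rose in MPNST against neurofibroma. Col6a3 ran from 12.4 to 33.8 CPM in nerve (median 21.2), 41.1 to 92.8 in neurofibroma (median 52.3) and 35.2 to 827 in MPNST (median 361) and rose in neurofibroma (log2 change 1.46, SE 0.27, adjusted p = 0.00596) and again in MPNST against neurofibroma (2.76, SE 0.62, adjusted p = 0.00444). Neurofibroma and nerve did not overlap. Col6a1 ran from 5.51 to 45.6 CPM in nerve (median 13.8), 15 to 57.8 in neurofibroma (median 36.4) and 33 to 604 in MPNST (median 306), with nerve libraries 3 and 6 inside the neurofibroma range. It was not called in neurofibroma (log2 change 0.76, SE 0.45, adjusted p = 0.267) and rose in MPNST against neurofibroma (3.19, SE 0.62, adjusted p = 0.00191). Col6a2 went with it (0.22 in neurofibroma, adjusted p = 0.695; 2.60 in MPNST, adjusted p = 0.00376).

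The remaining type VI chain gene that was called, Col6a5, was low except in 2 tumours. It ran from 0.744 to 5.31 CPM in nerve (median 1.43), 0.392 to 1.12 in neurofibroma (median 0.676) and 0.0524 to 29 in MPNST (median 2.62), with 29 CPM in MPNST library 5 and 15.3 in library 1. It was called higher in MPNST against neurofibroma (log2 change 3.48, SE 1.02, adjusted p = 0.0171) and not against nerve (1.78, SE 1.04, adjusted p = 0.179). Col8a1, a network-forming short-chain collagen known from vessel walls and the cornea, ran from 2.56 to 20.6 CPM in nerve (median 7.78), 12.2 to 50.8 in neurofibroma (median 25.9) and 21.4 to 663 in MPNST (median 197). Among the 12 genes called at every step it followed Col3a1 in the size of its MPNST rise (log2 change 3.21, SE 0.58, adjusted p = 0.00132), and all 6 MPNST libraries lay above nerve. Its rise in neurofibroma (1.57, SE 0.44, adjusted p = 0.0344) was lost without library 1, 4 or 5 of nerve or library 2, 3, 4 or 6 of neurofibroma (up to 0.0814).

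Col28a1, a collagen known from the basement membrane around Schwann cells, ran from 43.3 to 64.4 CPM in nerve (median 52), 86.9 to 121 in neurofibroma (median 102) and 4.86 to 256 in MPNST (median 110.2). In neurofibroma every library lay above nerve, with the smallest SE of the named collagen genes (log2 change 0.94, SE 0.12, adjusted p = 0.00166). Against nerve MPNST was called higher without the libraries holding other tissues alone (1.45, adjusted p = 0.0248). Of the MPNST libraries 1, 3 and 4 lay above every neurofibroma library and 2, 5 and 6 below, and no difference was called (0.28, SE 0.57, adjusted p = 0.714).

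Col23a1 and Col25a1 encode transmembrane collagens, and Col25a1 is known from neurons. Col23a1 ran from 35.5 to 107 CPM in nerve (median 72.6), 109 to 199 in neurofibroma (median 146) and 1.52 to 37 in MPNST (median 5.67). Neurofibroma lay above nerve throughout and MPNST below neurofibroma throughout, with MPNST library 4 (37.0 CPM) the only one inside the nerve range. It rose in neurofibroma (log2 change 1.12, SE 0.24, adjusted p = 0.0115) and fell in MPNST against neurofibroma (-3.74, SE 0.63, adjusted p = 0.000895) and nerve (-2.63, SE 0.63, adjusted p = 0.00561). Col25a1 ran from 6.11 to 30.8 CPM in nerve (median 10.2), 7.32 to 12.3 in neurofibroma (median 9.42) and 0.491 to 8.07 in MPNST (median 1.26) and fell in MPNST against nerve (log2 change -2.14, SE 0.73, adjusted p = 0.031), which was lost without library 2 or 6 of nerve or library 1 of MPNST and without the libraries holding other tissues (adjusted p = 0.0963). Col26a1 fell in MPNST against neurofibroma (-2.89, SE 0.89, adjusted p = 0.0207).

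The falls in MPNST, in number near the share over all genes, were set beside markers of nerve tissue. Of 10 sensory neuron markers 7 fell in MPNST against neurofibroma, with summed levels of 4667 to 6256 CPM in neurofibroma and 4.52 to 1535 in MPNST. Of 9 Schwann cell markers 5 fell and 0 rose, with 68.4 to 1376 CPM in MPNST. Over all genes tested 16.8% fell and 25.3% rose. None of either list was at 0 throughout MPNST. In MPNST library 6 the sum came mostly from Prph (687.7 CPM), Isl1 (536) and Scn9a (224), beside 4158 CPM of sympathoadrenal markers, while Scn10a (0.105), Calca (0.367) and Pou4f1 (0.105) were as low there as in other MPNST libraries. The part of these cells in the falls was not tested.

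The mix of collagen transcripts shifted toward the fibrillar class. Levels of different genes were compared as CPM per kilobase of transcript. Fibrillar genes made up 45.5 to 49.9% of this sum in nerve (median 47.3%), 49.4 to 56.0% in neurofibroma (52.3%), and between 52.4 and 68.6% in MPNST (67.1%), lowest in library 6. The FACIT share was 7.74 to 12.7% in nerve (10.3%), 9.79 to 13.7% in neurofibroma (11.5%), and between 3.34 and 6.75% in MPNST (5.31%). MPNST thus lay below both other groups in every library, low-collagen libraries 2 and 6 included. Other collagens went from 19.6 to 25.9% in nerve (23.8%) through 15.8 to 20.8% (17.98%) to 9.74 to 14.6% (13.1%), and basement membrane genes overlapped in all groups (medians 20.3, 17.8 and 17.7%).

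**Figure D4:**
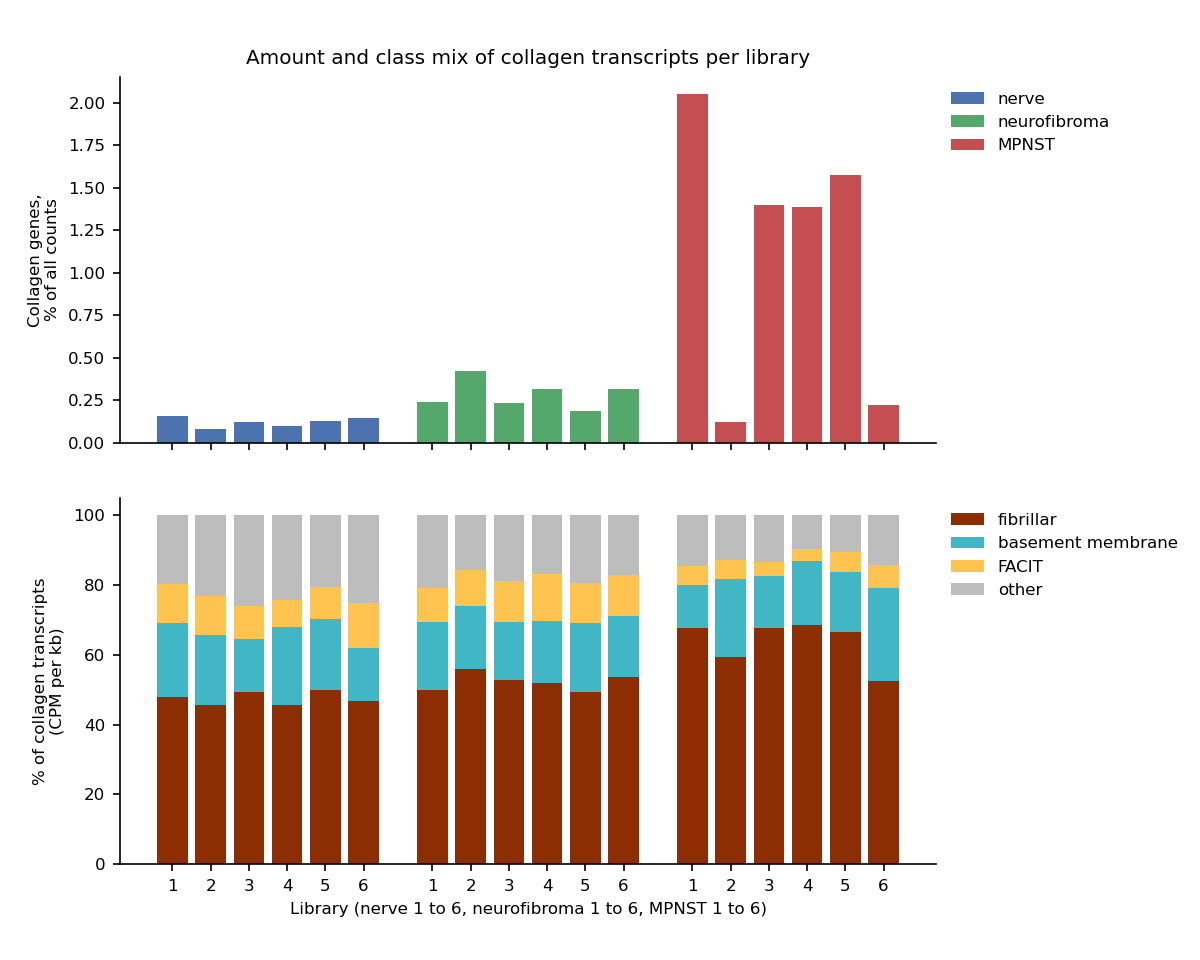
Share of all counts taken by collagen genes (upper bars, %) and the make-up of collagen transcripts by class (lower bars, % of summed CPM per kilobase) in each library. In the upper bars MPNST library 6 lies within neurofibroma and library 2 within nerve, while below the FACIT and other shares are smaller in all 6 MPNST libraries.

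The order of single genes changed as well. In nerve Col1a2 led with a mean of 34.8 ± 13.8 CPM per kilobase (SD, n = 6), ahead of Col5a3 (16.5 ± 6.10), Col4a1 (16.3 ± 5.25) and Col28a1 (12.5 ± 1.97), which do not differ among themselves beyond their spread. In neurofibroma Col1a2 (92.4 ± 27.4) was followed by Col1a1 (47.0 ± 24.7) and Col3a1 (44.3 ± 19.3). In MPNST Col3a1 (408 ± 318), Col1a2 (385 ± 274) and Col1a1 (354 ± 301) lay within each other's spread, with Col4a1 next (86.8 ± 52.2). In library 6 Col4a1 (44.9 CPM per kilobase) stood level with Col1a2 (44.8) and Col1a1 (43.8). Fewer genes made up most of the transcripts in MPNST: 17 to 22 genes were needed for 90% of collagen transcripts in nerve and neurofibroma libraries and 12 to 14 in MPNST.

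Ratios between paired chains within a library do not depend on the library's total. For 8 pairs, log2 ratios per kilobase were compared between groups by exact two-sided permutation tests (924 splits of 6 against 6, smallest possible p = 0.00216), adjusted over 24 tests. The Col6a1/Col6a2 ratio was 0.323 to 0.887 in nerve (median 0.815), 0.956 to 1.34 in neurofibroma (1.08) and 1.28 to 2.39 in MPNST (1.47). Nerve lay below both tumours throughout. The difference in log2 ratio was 0.66 in neurofibroma against nerve (SE 0.24, exact adjusted p = 0.0104), 0.57 in MPNST against neurofibroma (SE 0.19, exact adjusted p = 0.0297) and 1.23 for MPNST against nerve (SE 0.28, exact adjusted p = 0.0104). The call between MPNST and neurofibroma was lost without neurofibroma library 1, 2, 3, 5 or 6 (exact adjusted p up to 0.0844).

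The Col1a1/Col1a2 ratio was 0.162 to 0.590 in nerve (median 0.273), 0.307 to 0.688 in neurofibroma (0.477) and 0.917 to 1.14 in 5 MPNST libraries, with library 4 at 0.342. The difference was called in MPNST against nerve (1.55, SE 0.37, exact adjusted p = 0.0260) and not in neurofibroma against nerve (0.67, exact adjusted p = 0.114) or in MPNST against neurofibroma (0.88, exact adjusted p = 0.0714). Without MPNST library 4 the difference between MPNST and neurofibroma was called (1.14, exact adjusted p = 0.0148), and without nerve library 6 so was that between neurofibroma and nerve (0.87, exact adjusted p = 0.0223). Counts cannot say how many chains were made.

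The Col28a1/Col4a1 ratio showed no called difference between nerve and neurofibroma (0.00, SE 0.16, exact adjusted p = 0.991) and was lower in MPNST (-1.70, SE 0.38, exact adjusted p = 0.0104 against neurofibroma). All 6 MPNST libraries (0.0888 to 0.454) lay below neurofibroma (0.569 to 0.897). Col12a1/Col14a1 was 0.155 to 0.253 in neurofibroma and 0.258 to 2.98 in MPNST (difference 1.98, SE 0.63, exact adjusted p = 0.0104), again without overlap, and the call was lost without any 1 of the 6 neurofibroma libraries (exact adjusted p up to 0.0844). Without the 5 libraries holding other tissues the MPNST comparisons have 56 splits and a smallest possible p of 0.0179, and after adjustment over 24 tests none of the ratio differences was called (smallest adjusted p = 0.0612). The differences there were -1.76 for Col28a1/Col4a1 and 1.64 for Col12a1/Col14a1 in MPNST against neurofibroma, so the loss of the calls says nothing on their stability. Col4a1/Col4a2 kept to 1.04 to 1.78 in all 18 libraries and was not called, nor were Col3a1/Col1a1, Col5a1/Col5a2 and Col4a5/Col4a1. In MPNST library 4 Col3a1/Col1a1 reached 3.87, against 0.658 to 1.63 in the other 5.

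**Figure D5:**
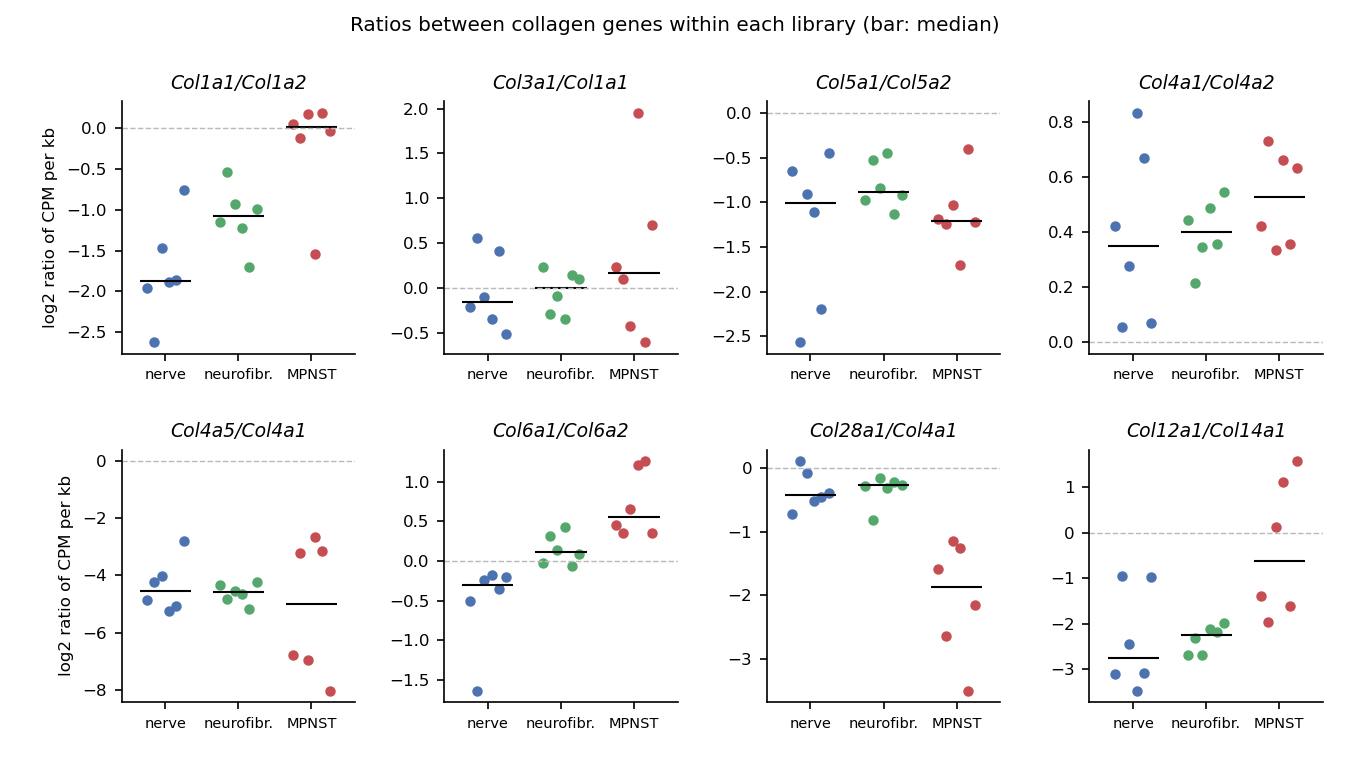
Log2 ratios of CPM per kilobase between 8 pairs of collagen genes in each library, by group, with the group median as a bar and equality as a dashed line. Col6a1/Col6a2 steps up across the groups, Col28a1/Col4a1 drops in MPNST, Col4a1/Col4a2 stays within a narrow band, and library 4 is the low MPNST point for Col1a1/Col1a2.

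Promoter sequences were set beside these patterns for genes that rose in MPNST (Col1a2, Col3a1, Col6a1) and genes that fell there (Col9a2, Col23a1). RefSeq promoters (GRCm38.p6) matched 35 of the 44 genes, in 38 windows. The 250 bases before each start are printed 5′ to 3′ on the gene's strand, with capitals on matches to 5 motifs on either strand. These are the TATA box TATAAA, the pentamer CCAAT known from many promoters, the GC box written GGGCGG, an AP-1 site spelled TGANTCA, and a motif bound by SMAD factors, CAGACA. The windows are chr6:4505368-4505617 (+), chr1:45311288-45311537 (+), chr10:76726045-76726294 (-), chr4:121039316-121039565 (+) and chr11:51289670-51289919 (+), in the order below.
Col1a2: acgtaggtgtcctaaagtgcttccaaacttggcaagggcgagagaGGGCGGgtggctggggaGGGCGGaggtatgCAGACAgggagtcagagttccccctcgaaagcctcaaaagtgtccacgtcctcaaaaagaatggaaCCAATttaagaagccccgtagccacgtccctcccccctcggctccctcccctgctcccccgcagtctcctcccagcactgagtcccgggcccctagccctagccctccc
Col3a1: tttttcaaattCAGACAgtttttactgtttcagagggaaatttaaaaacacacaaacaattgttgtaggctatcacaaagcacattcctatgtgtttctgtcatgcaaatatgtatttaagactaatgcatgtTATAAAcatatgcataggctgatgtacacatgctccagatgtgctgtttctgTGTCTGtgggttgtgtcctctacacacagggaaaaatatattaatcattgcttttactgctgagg
Col6a1: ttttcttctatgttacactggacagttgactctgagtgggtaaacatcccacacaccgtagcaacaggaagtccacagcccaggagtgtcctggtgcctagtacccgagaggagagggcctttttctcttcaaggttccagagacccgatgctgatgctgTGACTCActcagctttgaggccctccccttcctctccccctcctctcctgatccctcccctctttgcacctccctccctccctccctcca
Col9a2: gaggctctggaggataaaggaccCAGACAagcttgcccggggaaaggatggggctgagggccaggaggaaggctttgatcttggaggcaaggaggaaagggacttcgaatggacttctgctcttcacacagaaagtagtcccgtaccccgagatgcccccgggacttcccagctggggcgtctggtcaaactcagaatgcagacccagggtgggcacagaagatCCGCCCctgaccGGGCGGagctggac
Col23a1: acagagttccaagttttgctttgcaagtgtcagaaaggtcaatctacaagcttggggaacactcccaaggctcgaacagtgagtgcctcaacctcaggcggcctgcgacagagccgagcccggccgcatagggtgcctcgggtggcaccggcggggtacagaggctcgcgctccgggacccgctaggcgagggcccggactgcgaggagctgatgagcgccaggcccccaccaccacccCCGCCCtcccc
The Col1a2 window held a CCAAT, 2 GGGCGG and a CAGACA match. The Col3a1 window held 2 CAGACA matches and a TATAAA match 112 to 117 bases before its start. Col6a1 held 1 TGANTCA match, 84 to 90 bases before its start. Col9a2 held 2 GGGCGG matches and a CAGACA match, and Col23a1 1 GGGCGG match.

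Over all collagen windows TATAAA was present in 13.2% (12.4% of 32851 windows of all genes), CCAAT in 34.2% (33.8%), GGGCGG in 57.9% (32.7%), TGANTCA in 2.63% (6.75%) and CAGACA in 9 of the 38 (17.1%). Collagen windows had a median of 59.0% G and C, beside 52.4% over all windows. These matches describe the letters and show no binding. The windows of Col4a1 and Col4a2, 300 bases long each with their first transcribed bases, overlap by 78 bases on opposite strands of chromosome 8. The 250 bases before each start, which were searched for motifs, do not overlap between the pair.

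Genes that make and handle collagen were counted in 4 further lists. Of 19 genes for procollagen modification in the endoplasmic reticulum 10 rose and 0 fell in neurofibroma, and 10 rose and 3 fell in MPNST against neurofibroma (median log2 change 0.49 and 1.08). Over all genes 7.94% rose and 6.0% fell in neurofibroma, and 25.3% and 16.8% in MPNST against neurofibroma. P4hb, the β subunit of prolyl 4-hydroxylase, ran from 98.6 to 153 CPM in nerve (median 115), 160.4 to 213 in neurofibroma (median 197) and 262 to 982 in MPNST (median 665), without overlap at either step (log2 change 0.65, SE 0.11, adjusted p = 0.0045; 2.37, SE 0.51, adjusted p = 0.00366). Without MPNST library 2, which held the highest P4hb level, the second change was 1.57 (adjusted p = 0.000499). Ppib, a prolyl isomerase of the 3-hydroxylation complex, rose with it (0.54 and 0.92), as did the isomerase Fkbp10 (1.32 and 1.97). The 2 glycosyltransferases that add galactose to hydroxylysine parted: Colgalt1 rose in MPNST against neurofibroma (1.05, SE 0.22, adjusted p = 0.00319) and Colgalt2 fell (-3.77, SE 0.71, adjusted p = 0.00169). P3h2, a prolyl 3-hydroxylase of type IV collagen, rose in neurofibroma (1.72, SE 0.26) and fell in MPNST against neurofibroma (-1.22, SE 0.41, adjusted p = 0.0315).

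Of 14 export and processing genes 3 rose and 2 fell in neurofibroma, and 8 rose and 2 fell in MPNST against neurofibroma (median 0.05 and 1.59). The shares over all genes were 7.94% higher and 6.0% lower in neurofibroma, and 25.3% and 16.8% in MPNST against neurofibroma. The falls in MPNST were near the latter. Sec24d, a coat protein of the vesicles that carry procollagen, ran from 13.4 to 22.5 CPM in nerve (median 18), 19.3 to 33.8 in neurofibroma (median 25.2) and 61.1 to 144 in MPNST (median 91.9) and rose in MPNST against neurofibroma without overlap (log2 change 2.14, SE 0.25, adjusted p = 7.66e-05). MPNST libraries 2 and 6, low in collagen transcripts, were no exception. These libraries also held salivary gland or pancreatic acinar transcripts, and the part of such tissue in their Sec24d level was not tested. Pcolce2, an enhancer of C-propeptide cleavage, fell there (log2 change -3.85, SE 0.27, adjusted p = 2.34e-06), from 23.1 to 32.3 CPM in neurofibroma to 0.634 to 2.39. Adamts3, an N-propeptidase, fell at both steps (-1.06 and -1.70, adjusted p = 0.0105 and 0.0334).

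Of 12 collagen receptor genes, 11 were tested. Itga1, an integrin chain for type IV and I collagen, ran from 22.2 to 29.8 CPM in nerve (median 24.1), 34 to 74.5 in neurofibroma (median 56) and 20.9 to 299.9 in MPNST (median 133) and rose at both steps (log2 change 1.14, SE 0.18, adjusted p = 0.00333; 1.57, SE 0.34, adjusted p = 0.00369). Mrc2, an endocytic receptor for collagen fragments, rose in MPNST against neurofibroma (2.50, SE 0.60, adjusted p = 0.0062), as did Lair1, an inhibitory receptor of leukocytes (1.95, SE 0.57). Itga11, an integrin chain of fibroblasts for fibrillar collagen, went the other way (-1.81, SE 0.61, adjusted p = 0.0315) from at most 6.03 CPM in neurofibroma. In all, 3 rose and 0 fell in neurofibroma, and 5 rose and 1 fell in MPNST against neurofibroma. Over all genes 7.94% rose and 6.0% fell in neurofibroma, and 25.3% and 16.8% in MPNST against neurofibroma.

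Among 11 tested genes of fibril-associated proteoglycans and glycoproteins 4 rose in neurofibroma, beside 7.94% of all genes. In MPNST against neurofibroma 3 rose and 1 fell, near or below the shares over all genes (25.3% higher and 16.8% lower). Lum and Ogn encode small proteoglycans that set fibril width. Lum rose in neurofibroma (log2 change 2.03, SE 0.52, adjusted p = 0.0242) and was not called in MPNST against neurofibroma (-0.34, adjusted p = 0.77). Ogn ran from 172 to 772 CPM in nerve (median 398), 522 to 728 in neurofibroma (median 691) and 3.44 to 66.9 in MPNST (median 5.22) and fell in MPNST against neurofibroma without overlap (log2 change -4.66, SE 0.85, adjusted p = 0.00134). Bgn and Aspn, of the same family, rose there (2.81 and 4.06, SE 0.69 and 0.68, adjusted p = 0.00713 and 0.00082). Sparc, a collagen-binding glycoprotein, rose in neurofibroma (1.33, SE 0.29, adjusted p = 0.012) and was not called in MPNST against neurofibroma (0.40, SE 0.62, adjusted p = 0.631).

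The deposited columns form 2 runs, each listing 3 libraries of every group, and nothing in the labels says what the runs are. With the run as a term, chosen after seeing the data, 19 collagen genes rose in neurofibroma, and 16 rose and 9 fell in MPNST against neurofibroma. Calls lost with that term were Col9a2, Col10a1 and Col19a1 in neurofibroma (adjusted p = 0.0537 to 0.0608), Col7a1 in MPNST against neurofibroma (log2 change 2.99, adjusted p = 0.0805), and Col14a1 and Col4a6 in MPNST against nerve (0.0625 and 0.064). Within each run, every called collagen gene that could be tested kept its direction. The calls came from fits that held these same libraries, so this is no independent check. With 3 against 3 libraries fewer passed the test: 0 in neurofibroma against nerve in either run (23 and 20 at an unadjusted p below 0.05, edgeR), and 7 and 3 in MPNST against neurofibroma. Over all genes the same fits called 0 and 5 genes in neurofibroma against nerve and 4375 and 1473 in MPNST against neurofibroma.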

How the data were processed

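Poly(A) RNA of 18 mouse samples was sequenced from a stranded mRNA kit, per the labels. The authors deposited 1 table of estimated counts per gene symbol, made with Salmon 1.4.0 on GRCm39, per the submitters' processing notes, which also name FastQC and DESeq2. Counts were rounded to whole numbers, CPM used the library total, and edgeR 4.0.16 (R 4.3.3; filterByExpr with a minimum of 10 counts, TMM, quasi-likelihood test, Benjamini-Hochberg adjustment over all genes tested) compared each pair of groups. Gene lengths came from GENCODE M21 on GRCm38, not the submitters' build. DESeq2 1.42.0 and limma-voom (limma 3.58.1) were alternatives, beside other normalizations, filters, thresholds and sets of libraries. Scripts were tested on simulated data. No 2 libraries agreed within sampling noise (lowest chi-square per degree of freedom 18.8). Replicates are numbered in accession order. Described in full were the 4 highest members of each class, the 4 largest called rises and falls of each comparison with at least 5 CPM, members called in opposite directions, and the leading genes of each pathway list. The members and lists were chosen with earlier results of these data known. Near-identical or overlapping transcripts may share reads in ways the estimates do not show.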

Additional observations from a re-analysis of the deposited data

Results flagged for a closer look

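A library was singled out where its gap to the next, divided by the range of its group of 6, passed Dixon's critical value. This held for 7 of the 66 groups tested (22 genes in 3 groups). Chance alone gives about 1 in 20 where values are independent and normally distributed. Here CPM was not log-transformed, each flag fell on the highest library and the genes share libraries, so that rate is only a rough guide. MPNST library 4 supplied 4 of the 7. It held 37.01 CPM of Col23a1, with 11.47 in the next library, and 32.59 CPM of Col24a1, with 9.64 in the next. Its Col25a1 was 8.071 CPM, against 2.029 in the next library, and its Col7a1 was 552.8 CPM, against 200.7 in library 2. The same library held 1452 CPM of the bone marker Dmp1 and the lowest summed Schwann cell markers of its group. The rest of the bone list did not go with Dmp1 there. Bglap, Bglap2 and Sp7 stood at 0, Alpl at 0.773 CPM, Phex at 1.245 and Ibsp at 3.263. Runx2 lay within the range of the other MPNST libraries. The source of the Dmp1 transcripts was not tested. In nerve, Col25a1 was 30.84 CPM in library 6 and at most 14.21 in the others. In neurofibroma, Col4a2 was 223.7 CPM in library 2 and at most 151.3 elsewhere, and Col7a1 was 23.67 CPM in library 3 and at most 8.95 elsewhere.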

How the results depend on the processing

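No paired analysis was possible because the library numbers are names in accession order and pair nothing. In neurofibroma against nerve, the 20 rises became 8 at an adjusted p below 0.01, and 0 in 1 fit of all 18 samples and in each run of columns (the splits by run were chosen after seeing the data). They ranged from 13 (without neurofibroma library 4) to 22 (without nerve library 6) when 1 library was left out. The 2 falls became 1 with upper quartile normalization and without the libraries holding other tissues, and 0 with no filter on low counts, in 1 fit of all 18 samples, at an adjusted p below 0.01, with the run as a term, without the libraries high in adipocyte markers (also added after seeing the data) and in each run. They ranged from 0 to 3 when 1 library was left out. In MPNST against neurofibroma, 17 rises became 11 at an adjusted p below 0.01 and 3 and 1 in the first and second run, and 7 falls became 3, 4 and 2. Without the libraries high in adipocyte markers 8 rises and 3 falls were called. Leaving out 1 library gave 16 to 22 rises and 6 to 8 falls. In MPNST against nerve, 21 rises became 6 in the second run (18 to 22 without 1 library), and 7 falls became 3 at an adjusted p below 0.01 and 3 and 2 in the runs (4 to 7 without 1 library, 4 without nerve library 2 or 6 or MPNST library 1).

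Without the libraries holding other tissues, the MPNST comparisons have 3 against 5 samples and a smallest possible exact p of 0.0179. Neurofibroma against nerve has 5 against 5 samples there and a smallest possible exact p of 0.00794. In these fits log2 ratio differences lost their calls for Col1a1/Col1a2 in MPNST against nerve (1.52), Col6a1/Col6a2 (0.76, 0.80 and 1.55 in the 3 comparisons), Col28a1/Col4a1 in MPNST (-1.76 against neurofibroma and -1.78 against nerve) and Col12a1/Col14a1 (1.64 in MPNST against neurofibroma). Uncalled differences changed sign there for Col4a1/Col4a2 (-0.06 in neurofibroma), Col28a1/Col4a1 (-0.02 in neurofibroma) and Col4a5/Col4a1 (0.49 in both MPNST comparisons), and Col12a1/Col14a1 was -0.00 in neurofibroma with a pseudocount of 1.

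Leaving out 1 library, the difference in neurofibroma against nerve ranged from -0.10 to 0.11 for Col3a1/Col1a1, -0.06 to 0.10 for Col4a1/Col4a2, -0.43 to 0.06 for Col4a5/Col4a1, -0.08 to 0.10 for Col28a1/Col4a1, -0.22 to 0.28 for Col12a1/Col14a1 and 0.50 to 0.87 for Col1a1/Col1a2. In MPNST against neurofibroma it ranged from -0.99 to 0.08 for Col4a5/Col4a1, 0.46 to 0.64 for Col6a1/Col6a2, 1.59 to 2.30 for Col12a1/Col14a1, 0.75 to 1.14 for Col1a1/Col1a2 and -0.47 to -0.21 for Col5a1/Col5a2, and in MPNST against nerve from -0.07 to 0.35 for Col5a1/Col5a2.

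Among named genes only uncalled changes reversed. In neurofibroma against nerve Col25a1 was 0.02 with limma-voom, 0.31 in the first run and -0.60 to 0.00 without 1 library, Aspn was 0.31 in the first run and -0.72 to 0.04 without 1 library, Colgalt1 was -0.04 in the first run and -0.02 to 0.12 without 1 library, and Mrc2 was -0.49 and Pcolce2 0.03 in the second run. In MPNST against neurofibroma Col14a1 was -0.20 to 0.52 without 1 library, and Col28a1 was -0.04 with limma-voom, -0.06 in the second run and -0.03 to 0.51 without 1 library. Without the libraries high in adipocyte markers Col14a1 was -0.55, Sparc -0.34 and Nf1 0.01 in MPNST against neurofibroma, and Col6a5 was -0.47 and P3h2 -0.03 in MPNST against nerve. The cause was not tested. Depth limits the rarest genes most, and Col10a1, called lower in neurofibroma, stood at no more than 1.28 CPM in nerve.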
